A study of Mus musculus with 11 samples.

Results

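The 10 genes Tyr, Tyrp1, Dct, Pmel, Mlana, Slc45a2, Oca2, Slc24a5, Gpr143 and Gpnmb encode enzymes, structural proteins and membrane proteins of the melanosome, the organelle in which melanin is made. They were chosen by symbol, whatever their counts, from the 18756 mouse genes of a table of RNA sequencing counts, and each matched exactly 1 gene ID. The table covers 11 end-point skin tumours of C57BL/6 mice from a genetically engineered melanoma model. There were 5 tumours labelled GNA11 Q209L Bap1 KO, 2 labelled GNA11 Q209L and 4 labelled BRAF V600E Bap1 KO. GNA11 Q209L keeps a G protein alpha subunit active and is known from uveal melanoma. BRAF V600E keeps the BRAF kinase active and is common in melanoma of the skin. Bap1 removes ubiquitin from histones and other nuclear proteins and is lost in many uveal melanomas. The labels give no sex, age, litter, batch, tumour purity or promoter driving the transgenes, so p-values measure the spread between these libraries. Tumours labelled Bap1 KO were present with both oncogenes, and GNA11 Q209L was the only genotype without that label.

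Total counts ran from 18338082 to 81035135 per library, so that 3 counts correspond to 0.0370 to 0.164 counts per 1000000 (CPM), and replicate pairs differed by at least 87.5 times the chi-square expected from counting noise. The human GNA11 Q209L transgene sequence had 120 to 1005 counts in GNA11 Q209L Bap1 KO libraries, 877 and 2807 in GNA11 Q209L libraries and 0 to 5 in BRAF V600E Bap1 KO libraries. The human BRAF sequence had 43 to 81 counts in BRAF V600E Bap1 KO libraries and at most 1 in any other. The 7 melanocyte markers, none of them among the 10 genes, summed to 2967 to 4837 CPM in GNA11 Q209L Bap1 KO tumours, 2437 and 3708 CPM in GNA11 Q209L tumours, and 134 to 750 CPM in BRAF V600E Bap1 KO tumours. Not every marker followed that sum. Between the genotypes with the Bap1 KO label, edgeR called 4 of the 7 higher with GNA11 Q209L and left 3 uncalled. Ednrb had 20.1 to 25.6 CPM in GNA11 Q209L Bap1 KO tumours, within the 13.9 to 106 CPM of BRAF V600E Bap1 KO tumours. S100b had 4.76 to 786 CPM in the former and 6.38 to 317 CPM in the latter. Kit also overlapped between them. Bap1 itself was at 101 to 170 CPM in GNA11 Q209L Bap1 KO tumours, 85.0 and 137 CPM in GNA11 Q209L tumours and 54.7 to 71.3 CPM in BRAF V600E Bap1 KO tumours. Which exons were deleted is not given in the sources used here, so the gene total does not check the knockout. For BRAF V600E Bap1 KO replicates 2 and 4, the table's own upper annotation line gives BAP1 F/F and its lower line gives NA. BRAF V600E Bap1 KO replicate 4 stands apart: 3 salivary gland markers sum to 133908 CPM there and to at most 34.8 CPM in any other library. GNA11 Q209L Bap1 KO replicates 1 and 2 share an identifier in their titles, and the labels do not say whether they came from the same animal. CPM values below are scaled by trimmed mean of M values (TMM) and given as mean ± SD over libraries.

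Melanin is made from tyrosine in melanosomes by Tyr, the rate-limiting enzyme, with Dct and Tyrp1 acting on later intermediates. Pmel is cut into amyloid fibrils on which melanin is laid down, and ion transporters of the melanosome membrane set the pH and ion content that Tyr needs. In melanocytes many of these genes are bound by Mitf, a basic helix-loop-helix factor that recognises the E-box CATGTG, often flanked by T, as in the M-box AGTCATGTGCT.

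Promoter windows are shown for the 3 enzyme genes and for Gpnmb, the gene with the most different ratios below. They run from 250 bases before to 50 bases after the annotated start site, come from RefSeq on GRCm38.p6 and are read 5′ to 3′ on the gene's strand. The build differs from the authors' mm9. Capitals mark CATGTG or its reverse complement CACATG. The Tyr window is chr7:87493463-87493762 on the minus strand, the Tyrp1 window chr4:80833963-80834262 on the plus strand, the Dct window chr14:118052197-118052496 on the minus strand and the Gpnmb window chr6:49036268-49036567 on the plus strand.
Tyr: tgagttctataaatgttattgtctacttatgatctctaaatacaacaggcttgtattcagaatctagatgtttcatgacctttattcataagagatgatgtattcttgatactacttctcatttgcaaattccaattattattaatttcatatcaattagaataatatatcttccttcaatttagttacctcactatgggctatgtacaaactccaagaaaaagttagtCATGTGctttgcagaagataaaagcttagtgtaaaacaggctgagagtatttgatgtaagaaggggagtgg
Tyrp1: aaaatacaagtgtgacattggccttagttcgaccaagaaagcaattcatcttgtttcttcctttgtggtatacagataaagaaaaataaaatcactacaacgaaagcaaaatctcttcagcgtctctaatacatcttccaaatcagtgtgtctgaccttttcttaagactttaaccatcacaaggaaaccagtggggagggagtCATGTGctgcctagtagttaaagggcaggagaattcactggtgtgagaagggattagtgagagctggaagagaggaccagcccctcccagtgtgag
Dct: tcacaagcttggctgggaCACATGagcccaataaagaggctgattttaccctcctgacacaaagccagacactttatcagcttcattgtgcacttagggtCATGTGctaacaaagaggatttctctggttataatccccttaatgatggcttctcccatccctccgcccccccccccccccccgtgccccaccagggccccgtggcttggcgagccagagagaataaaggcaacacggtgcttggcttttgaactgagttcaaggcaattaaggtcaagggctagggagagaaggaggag
Gpnmb: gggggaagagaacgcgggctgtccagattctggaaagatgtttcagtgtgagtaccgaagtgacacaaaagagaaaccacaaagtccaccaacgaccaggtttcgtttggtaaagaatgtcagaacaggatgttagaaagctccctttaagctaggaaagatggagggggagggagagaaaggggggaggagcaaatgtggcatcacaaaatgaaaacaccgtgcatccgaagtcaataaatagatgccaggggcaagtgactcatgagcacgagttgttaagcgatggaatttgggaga

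The promoter table held 6 of the 10 genes, these 4 with Oca2 and Slc24a5, and none of Pmel, Mlana, Slc45a2 and Gpr143. CATGTG, searched on both strands, occurred in 5 of the 6 windows and in 14.2% of all 32851 windows of the same length, and the Gpnmb window was the one without it. The longer TCATGTG, which contains it, occurred in 4 of the 6 windows and in 3.77% of all windows. The longest run with TCATGTG that the Tyr and Tyrp1 windows share, the 11-base AGTCATGTGCT, occurred in 7 of all windows (0.0213%), these 2 included. CACGTG, the other common E-box, was in 0 of the 6 windows and in 7.15% of all. The Tyr match to AGTCATGTGCT starts 24 bases before the start site and the Tyrp1 match 49 bases before it. Aligned on the motif, with TCATGTG in capitals and the strand that carries it written out, the matches read as follows.
Tyr, 22 bases before the start: aaaagttagTCATGTGctttgcaga
Tyrp1, 47 bases before the start: gggagggagTCATGTGctgcctagt
Dct, 151 bases before the start: cacttagggTCATGTGctaacaaag
Dct, reverse strand, 232 bases before the start: ttattgggcTCATGTGtcccagcca
Slc24a5, reverse strand, 13 bases before the start: tatgctgaaTCATGTGagcagtctc
These matches are descriptions of sequence, and binding was not measured here.

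The 3 melanin enzymes were abundant in every tumour with GNA11 Q209L, and their GNA11 Q209L Bap1 KO means were 544 to 1047 times those of BRAF V600E Bap1 KO. Tyr had 2205, 2847, 1633, 4037 and 2434 CPM in GNA11 Q209L Bap1 KO tumours, 1657 and 1304 CPM in GNA11 Q209L tumours, and 1.56, 1.64, 5.50 and 10.7 CPM in BRAF V600E Bap1 KO tumours. Both genotypes with GNA11 Q209L overlapped, and neither overlapped BRAF V600E Bap1 KO. Against BRAF V600E Bap1 KO tumours, the log2 fold change of GNA11 Q209L Bap1 KO was 9.09 ± 0.83 (SE, adjusted p = 0.000142, edgeR quasi-likelihood test with Benjamini-Hochberg adjustment over 17350 genes). Tyrp1, which in mice oxidises a late indole intermediate and stabilises Tyr, had 16354, 11819, 20205, 33095 and 21071 CPM in GNA11 Q209L Bap1 KO tumours, 11530 and 12486 CPM in GNA11 Q209L tumours, and 5.10, 12.4, 30.2 and 33.3 CPM in BRAF V600E Bap1 KO tumours. Its lowest GNA11 Q209L Bap1 KO library, replicate 2, lay between both GNA11 Q209L libraries. Dct, the dopachrome tautomerase, had 25578, 22803, 24819, 38814 and 25879 CPM in GNA11 Q209L Bap1 KO tumours, 25841 and 19174 CPM in GNA11 Q209L tumours, and 5.37, 17, 30.9 and 52.1 CPM in BRAF V600E Bap1 KO tumours. Replicate 4 of GNA11 Q209L Bap1 KO was the highest library for all 3 enzymes. Against BRAF V600E Bap1 KO tumours, the log2 fold changes of GNA11 Q209L Bap1 KO were 9.98 ± 0.92 for Tyrp1 (adjusted p = 0.000142) and 10.03 ± 0.96 for Dct (adjusted p = 0.000183, SE, edgeR).

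The structural genes showed the same split between oncogenes, but Mlana and Gpnmb had lower means in GNA11 Q209L Bap1 KO tumours than in GNA11 Q209L tumours. Pmel, the fibril protein, had 27330, 53489, 28791, 18369 and 38034 CPM in GNA11 Q209L Bap1 KO tumours, 23783 and 28089 CPM in GNA11 Q209L tumours, and 3.66, 21.2, 20.6 and 25.9 CPM in BRAF V600E Bap1 KO tumours. Its range over GNA11 Q209L Bap1 KO libraries spanned 2.91-fold and held both GNA11 Q209L libraries. Pmel had the largest fold change of the 10 genes against BRAF V600E Bap1 KO tumours, 10.86 ± 0.99 on the log2 scale (SE, adjusted p = 0.000142, edgeR). Mlana, a small membrane protein of early melanosomes that binds Pmel, had 949, 1464, 480, 945 and 921 CPM in GNA11 Q209L Bap1 KO tumours, 1869 and 1260 CPM in GNA11 Q209L tumours, and 0.831, 1.23, 5.64 and 13.4 CPM in BRAF V600E Bap1 KO tumours. Both GNA11 Q209L libraries were above 4 of the 5 GNA11 Q209L Bap1 KO libraries. Gpnmb, a Pmel-related glycoprotein of melanosomes that macrophages and osteoclasts also make, had 12330, 19921, 8554, 6565 and 11354 CPM in GNA11 Q209L Bap1 KO tumours, 22867 and 20784 CPM in GNA11 Q209L tumours, and 96.7, 228, 64.9 and 166 CPM in BRAF V600E Bap1 KO tumours. All 5 GNA11 Q209L Bap1 KO libraries were below both GNA11 Q209L libraries. Against BRAF V600E Bap1 KO tumours, the log2 fold changes of GNA11 Q209L Bap1 KO were 7.51 ± 0.97 for Mlana (adjusted p = 0.000662) and 6.40 ± 0.68 for Gpnmb (adjusted p = 0.000261, SE, edgeR).

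**Figure D1:**
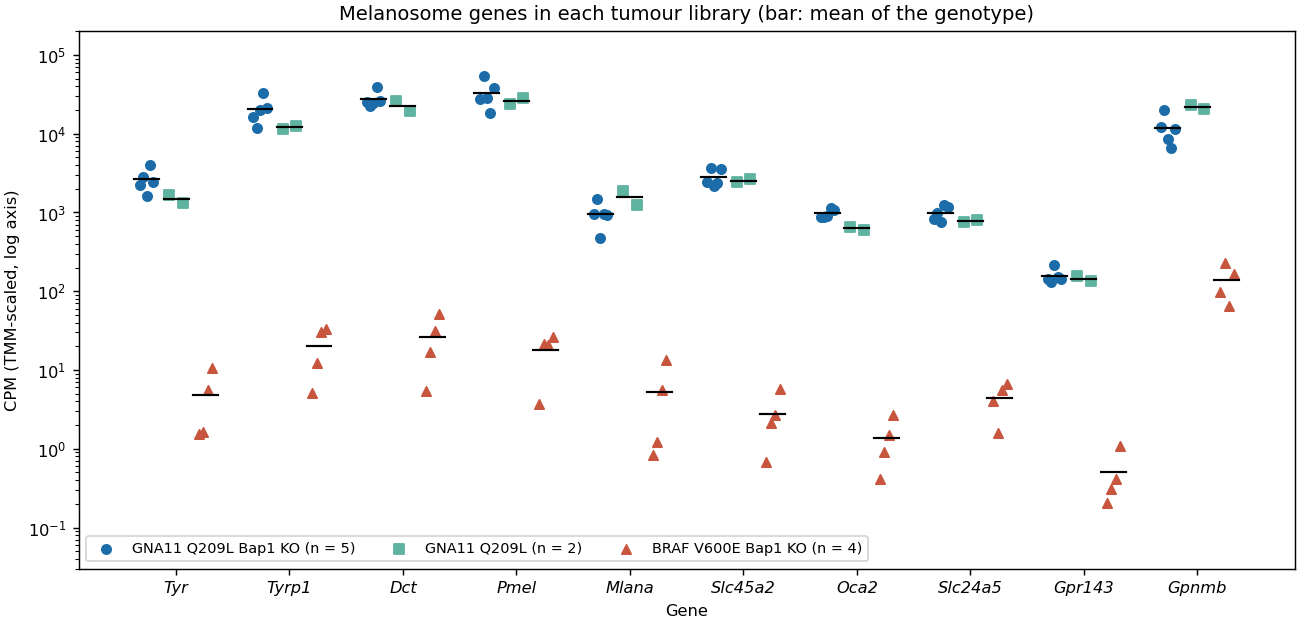
CPM of the 10 genes on a log axis (TMM-scaled), 1 point per tumour library, with a bar at the mean of each genotype. The GNA11 Q209L Bap1 KO and GNA11 Q209L points share a range for most genes, and every BRAF V600E Bap1 KO point lies far below both, with the smallest gap for Gpnmb.

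The transporters and the melanosomal receptor showed the same step between oncogenes. Slc45a2, a transporter that raises melanosome pH, had 2473, 3716, 2140, 2400 and 3520 CPM in GNA11 Q209L Bap1 KO tumours, 2426 and 2652 CPM in GNA11 Q209L tumours, and 0.674, 2.11, 2.71 and 5.68 CPM in BRAF V600E Bap1 KO tumours. Oca2, needed for a melanosomal chloride conductance, had 875, 879, 913, 1139 and 1083 CPM in GNA11 Q209L Bap1 KO tumours, 659 and 596 CPM in GNA11 Q209L tumours, and 0.416, 0.920, 1.5 and 2.67 CPM in BRAF V600E Bap1 KO tumours. For Oca2, all 5 GNA11 Q209L Bap1 KO libraries were above both GNA11 Q209L libraries. Slc24a5, a potassium-dependent sodium-calcium exchanger, had 838, 972, 758, 1237 and 1158 CPM in GNA11 Q209L Bap1 KO tumours, 749 and 801 CPM in GNA11 Q209L tumours, and 4.07, 1.60, 5.50 and 6.55 CPM in BRAF V600E Bap1 KO tumours. Gpr143, the X-linked G protein-coupled receptor that limits melanosome size, had 144, 132, 215, 154 and 145 CPM in GNA11 Q209L Bap1 KO tumours, 155 and 133 CPM in GNA11 Q209L tumours, and 0.202, 0.307, 0.418 and 1.09 CPM in BRAF V600E Bap1 KO tumours. Slc24a5 and Gpr143 overlapped between GNA11 Q209L Bap1 KO tumours and those labelled GNA11 Q209L, as Slc45a2 did. Against BRAF V600E Bap1 KO tumours, the log2 fold changes of GNA11 Q209L Bap1 KO were 10.004 ± 0.77 for Slc45a2, 9.49 ± 0.64 for Oca2, 7.81 ± 0.51 for Slc24a5 and 8.35 ± 0.56 for Gpr143 (SE, edgeR adjusted p from 3.35e-05 to 5.54e-05).

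Setting GNA11 Q209L Bap1 KO tumours against BRAF V600E Bap1 KO tumours addresses the difference between oncogenes where the Bap1 KO label is shared. All 10 genes passed the threshold as higher in GNA11 Q209L Bap1 KO tumours (edgeR, adjusted p from 3.35e-05 to 0.000662), where 16.5% of the 17350 genes tested were called higher and 24.7% lower. Their groups also did not overlap, as was so in the higher direction for 14.7% of all genes. The median log2 fold change was 9.29 over the 10 genes and −0.26 over all genes. Without BRAF V600E Bap1 KO replicate 4, the library with salivary gland markers, the 10 log2 fold changes ran from 6.49 for Gpnmb to 11.1 for Pmel and all 10 were called. GNA11 Q209L tumours against BRAF V600E Bap1 KO tumours, which differ in both the oncogene and the Bap1 label and share the BRAF libraries with the comparison above, also had all 10 genes called higher (9.27% of all genes). Their median log2 fold change was 8.56 there, against −0.23 over all genes (edgeR, adjusted p from 9.00e-05 to 0.00193). Fibroblast markers moved the opposite way: the 6 of them summed to 286 to 2188 CPM in GNA11 Q209L Bap1 KO tumours and 3079 to 18154 CPM in BRAF V600E Bap1 KO tumours. All 6 were called lower (edgeR, median log2 fold change −4.37), and their part in the values of the 10 genes was not tested. Fewer cells of a type and less RNA per cell cannot be told apart in these bulk tumours.

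Setting GNA11 Q209L Bap1 KO tumours against GNA11 Q209L tumours addresses the Bap1 KO label with the oncogene shared. None of the 10 genes passed the threshold, 0 had an unadjusted p under 0.05 by edgeR, and DESeq2 and limma voom also called 0. The test called 0.0288% of all genes, while 11.4% had an unadjusted p under 0.05. The log2 fold change was above 0 for 8 genes and below it for 2, with a median of 0.32 over the 10 genes and −0.0041 over all genes. Tyr had a log2 fold change of 0.83 ± 0.73, Tyrp1 0.77 ± 0.77, Mlana −0.72 ± 0.84 and Gpnmb −0.89 ± 0.62 (SE, edgeR adjusted p from 0.641 to 0.817). Oca2 averaged 978 ± 124 CPM in GNA11 Q209L Bap1 KO tumours and 627 ± 44.2 CPM in GNA11 Q209L tumours (SD, n = 5 and 2), without overlap, a log2 fold change of 0.64 ± 0.54 (SE, edgeR adjusted p = 0.716). Gpnmb averaged 11745 ± 5108 CPM in GNA11 Q209L Bap1 KO tumours and 21826 ± 1473 CPM in GNA11 Q209L tumours (SD, n = 5 and 2), also without overlap. In this design 7.57% of all genes did not overlap in the higher direction, where Oca2 lies, and 9.01% in the lower direction, where Gpnmb lies. Fibroblast markers summed to 286 to 2188 CPM in GNA11 Q209L Bap1 KO tumours and 2831 and 11140 CPM in GNA11 Q209L tumours, without overlap. All 6 had a log2 fold change below 0 (median −2.92) and 0 were called by edgeR, with the smallest adjusted p for Dcn (−4.01 ± 0.80, SE, adjusted p = 0.131). All 12 macrophage and myeloid markers had a log2 fold change below 0 (median −1.58), and 0 were called. Their sums overlapped, at 427 to 1990 CPM in GNA11 Q209L Bap1 KO tumours and 8101 and 1467 CPM in GNA11 Q209L tumours. Endothelial markers summed to 258 to 367 CPM in GNA11 Q209L Bap1 KO tumours and 434 and 783 CPM in GNA11 Q209L tumours. Schwann cell markers summed to 312 to 412 CPM in GNA11 Q209L Bap1 KO tumours and 443 and 510 CPM in GNA11 Q209L tumours. The part of these cells in the values of the 10 genes was not tested. The SEs of the 10 genes ran from 0.46 to 0.84 on the log2 scale, and a p above the threshold does not show that the genotypes are alike.

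**Figure D2:**
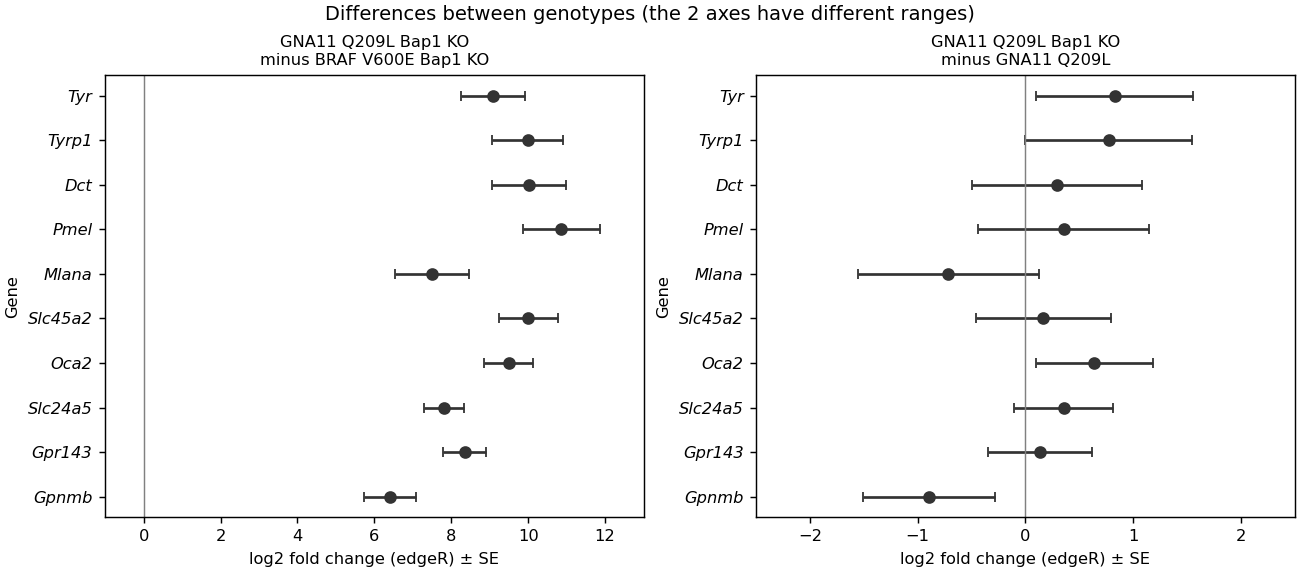
Log2 fold changes from edgeR with their SE (bars) for the 10 genes, GNA11 Q209L Bap1 KO minus BRAF V600E Bap1 KO at left and GNA11 Q209L Bap1 KO minus GNA11 Q209L at right, on axes of different range. Every value at left lies between 6.40 and 10.86, while those at right lie between −0.89 and 0.83.

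Levels of different genes were set side by side per kilobase of the longest coding transcript (GENCODE on GRCm38). In GNA11 Q209L Bap1 KO tumours the order of CPM per kilobase was Pmel (15588 ± 6250), Dct (12524 ± 2904), Tyrp1 (7540 ± 2916), Gpnmb (3173 ± 1380), Mlana (1051 ± 385), Slc45a2 (955 ± 240), Slc24a5 (508 ± 104), Tyr (435 ± 149), Oca2 (312 ± 39.7) and Gpr143 (99.7 ± 20.8, SD, n = 5). Of the 9 neighbouring pairs in that order, the ranges did not overlap only for Gpnmb above Mlana, Slc45a2 above Slc24a5 and Oca2 above Gpr143. Tyr, the rate-limiting enzyme, was number 8 of the 10 genes per kilobase in both genotypes with GNA11 Q209L. Its transcript, 6042 bases, was the longest of the 10, followed by Gpnmb at 3701 bases. The annotation used for the counts is not given, and another transcript length could change that place. By CPM alone, Tyr (2631) was above Mlana (952) and Slc24a5 (992) in GNA11 Q209L Bap1 KO tumours. In GNA11 Q209L tumours Tyr (1480) was below Mlana (1564) and above Slc24a5 (775). GNA11 Q209L kept the order per kilobase except that Gpnmb, at 5897 ± 398 CPM per kilobase (SD, n = 2), stood above Tyrp1, at 4415 ± 248. In BRAF V600E Bap1 KO tumours, Gpnmb led with 37.5 ± 19.7 CPM per kilobase (SD, n = 4), above Dct at 12.0 ± 9.13 in all 4 libraries, and the range of every gene overlapped that of its neighbour.

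Ratios between the genes within a library do not depend on library scaling. Over the 7 libraries with GNA11 Q209L, the SD of the log2 count ratio ran from 0.21 for Oca2 to Slc24a5 up to 1.24 for Tyrp1 to Gpnmb, with a median of 0.58 over the 45 pairs. The 3 steadiest pairs linked Oca2, Slc24a5 and Dct: Dct to Oca2 had an SD of 0.25 and Dct to Slc24a5 an SD of 0.26. Over these 7 libraries, Pmel was steadiest against Slc45a2, with an SD of 0.30. Ratios with Gpnmb moved most over them, with a median SD of 0.88 over its 9 pairs. Gpnmb to Mlana had an SD of 0.44. The 7 libraries pool both genotypes, so each SD also holds the difference between them. Within the 5 GNA11 Q209L Bap1 KO libraries, Gpnmb to Pmel had the lowest SD of the 9 ratios to Pmel, 0.25. Slc45a2 to Pmel had an SD of 0.36 there, and Gpnmb to Tyr 0.82. The ratio of Tyrp1 to Pmel spanned 8.15-fold over the 7 libraries, while that of Dct to Oca2 spanned 1.64-fold. Pairs share the 7 libraries and genes of high count, and these spreads are descriptions.

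Gpnmb relative to Pmel differed in range between the 3 genotypes. Gpnmb had 0.451, 0.372, 0.297, 0.357 and 0.299 counts per Pmel count in GNA11 Q209L Bap1 KO tumours, 0.962 and 0.740 in GNA11 Q209L tumours, and 26.4, 10.7, 3.15 and 6.42 in BRAF V600E Bap1 KO tumours. No library of one genotype fell in the range of another. GNA11 Q209L Bap1 KO minus GNA11 Q209L gave −1.26 for the mean log2 ratio (n = 5 and 2, exact two-sided permutation p = 0.0952, the smallest this design allows, adjusted p = 0.214 over 18 ratio tests). GNA11 Q209L Bap1 KO minus BRAF V600E Bap1 KO gave −4.63 (n = 5 and 4, exact permutation p = 0.0159, the smallest possible, adjusted p = 0.0714). In that comparison Slc24a5 to Pmel (−3.13), Mlana to Pmel (−2.85) and Gpr143 to Pmel (−2.52) also did not overlap, each with the same exact permutation p and adjusted p. None of the 18 tests passed after adjustment. With Tyr in place of Pmel, Gpnmb still lay apart in GNA11 Q209L Bap1 KO tumours (log2 ratio 0.70 to 2.81), but GNA11 Q209L tumours (3.79 and 3.99) lay within the range of BRAF V600E Bap1 KO tumours (3.56 to 7.12). With that denominator the differences from BRAF V600E Bap1 KO tumours were −1.53 for Slc24a5 and −1.25 for Mlana, still without overlap, and −0.92 for Gpr143, with overlap (exact permutation p = 0.0952). Slc24a5 had 0.0307, 0.0182, 0.0263, 0.0673 and 0.0304 counts per Pmel count in GNA11 Q209L Bap1 KO tumours, 0.0315 and 0.0285 in GNA11 Q209L tumours, and 1.11, 0.0756, 0.267 and 0.253 in BRAF V600E Bap1 KO tumours. The BRAF V600E Bap1 KO range lay outside that of the 7 libraries with GNA11 Q209L for 17 of the 45 pairs, 5 of the 9 with Gpnmb and 12 of the 36 without it. The pairs share genes and libraries. Pairs of other genes were not counted, so this count cannot be read as particular to these genes. Without BRAF V600E Bap1 KO replicate 4, Gpnmb to Pmel differed by −4.78 and Slc24a5 to Pmel by −3.17.

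**Figure D3:**
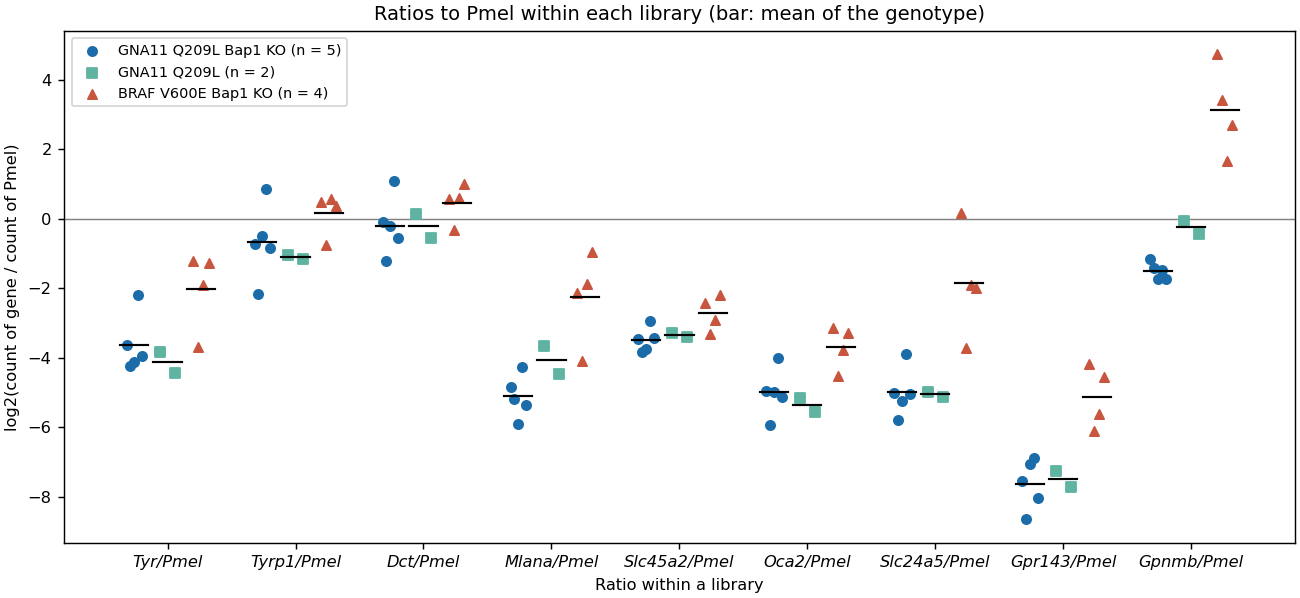
Log2 of the count of each gene over the count of Pmel in the same library, 1 point per library, with a bar at the mean of each genotype. For Gpnmb the 3 genotypes do not overlap, from −1.75 to −1.15 in GNA11 Q209L Bap1 KO tumours, −0.43 to −0.06 in GNA11 Q209L tumours and 1.66 to 4.72 in BRAF V600E Bap1 KO tumours.

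In BRAF V600E Bap1 KO tumours the residual levels were low but above the limit that 3 counts set. That limit covers counting error alone, and whether every such read came from the labelled tumour was not tested. The smallest count was 9, for Gpr143 in replicate 2, equal to 0.307 CPM (exact 95% Poisson interval 0.140 to 0.582), and the others lay between 12 and 8614 counts. As a percent of the GNA11 Q209L Bap1 KO mean, Pmel was at 0.0110%, 0.0638%, 0.0619% and 0.0780% in replicates 1 to 4. Dct was at 0.0195%, 0.0615%, 0.112% and 0.189%, and Tyr at 0.0593%, 0.0621%, 0.209% and 0.405%. Replicate 1 was the lowest and replicate 4 the highest for these 3 genes and for Tyrp1, Mlana, Slc45a2, Oca2 and Gpr143. Mlana spanned the widest range, with 0.0873%, 0.129%, 0.592% and 1.40%, or 16.1-fold. Slc24a5, at 0.410%, 0.161%, 0.554% and 0.660%, had its lowest value in replicate 2. Gpnmb, at 0.824%, 1.94%, 0.552% and 1.42%, had its highest value in replicate 2 and its lowest in replicate 3, where none of the other 9 genes was lowest.

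**Figure D4:**
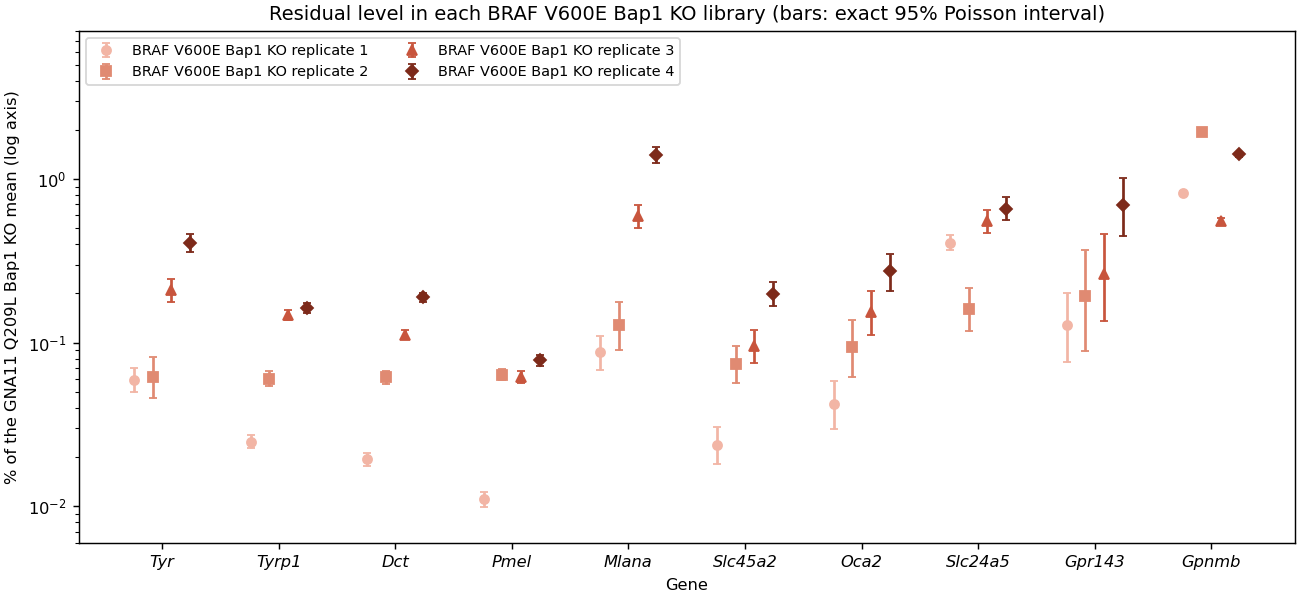
Residual level of each gene in each BRAF V600E Bap1 KO library, as a percent of the GNA11 Q209L Bap1 KO mean on a log axis, with exact 95% Poisson intervals of the count (counting error only). Values run from 0.0110% for Pmel in replicate 1 to 1.94% for Gpnmb in replicate 2, and replicate 1 is lowest for 8 of the 10 genes.

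The 10 genes took 8.44% to 10.7% of all counts in GNA11 Q209L Bap1 KO libraries, 8.30% and 7.59% in GNA11 Q209L libraries, and 0.0130% to 0.0390% in BRAF V600E Bap1 KO libraries. Gpnmb made up 6.15% to 16.9% of their summed CPM in GNA11 Q209L Bap1 KO tumours, 25% and 23.8% in GNA11 Q209L tumours, and 81.6%, 79.6%, 38.6% and 52.4% in BRAF V600E Bap1 KO tumours. Macrophages make Gpnmb, and 12 macrophage and myeloid markers summed to 427 to 1990 CPM in GNA11 Q209L Bap1 KO tumours, 8101 and 1467 CPM in GNA11 Q209L tumours, and 6311, 5063, 960 and 1935 CPM in BRAF V600E Bap1 KO tumours. Gpnmb had 22867 and 20784 CPM in the same GNA11 Q209L libraries. Of the defining markers, Cd68, Csf1r and Adgre1 were detected in all 11 libraries, and Cd163 was at 0 only in GNA11 Q209L Bap1 KO replicate 5. The 4 osteoclast and giant cell markers summed to 20.7 to 402 CPM in GNA11 Q209L Bap1 KO tumours, 547 and 746 CPM in GNA11 Q209L tumours, and 931, 324, 370 and 228 CPM in BRAF V600E Bap1 KO tumours. Their sum was lower in GNA11 Q209L Bap1 KO tumours than in GNA11 Q209L tumours without overlap, although none of the 4 was called (edgeR). Most of that sum was Ctsk, which averaged 202 ± 138 CPM in GNA11 Q209L Bap1 KO tumours and 542 ± 248 CPM in GNA11 Q209L tumours (SD, n = 5 and 2, overlapping). Acp5 and Ocstamp also overlapped, and Ocstamp was at 0 in replicate 4 of GNA11 Q209L Bap1 KO. Dcstamp went the other way without overlap. It had 2.55 to 6.43 CPM in GNA11 Q209L Bap1 KO tumours and at most 2.36 CPM in GNA11 Q209L tumours. The part of these cells in the Gpnmb values was not tested.

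The other 9 genes summed to 21.9, 58.3, 103 and 151 CPM in BRAF V600E Bap1 KO replicates 1 to 4. Replicates 3 and 4, with the higher sums, also had higher sums of keratinocyte, hair follicle and fibroblast markers. The 7 keratinocyte markers summed to 153, 310, 13219 and 4903 CPM in those 4 libraries, and the 5 hair follicle markers to 3.58, 0.443, 67.8 and 4863 CPM. The 6 fibroblast markers summed to 3410, 3079, 18154 and 11595 CPM. Sox10, a neural crest and melanocyte regulator, had 1.93, 3.58, 533 and 232 CPM there, and the 6 Schwann cell markers summed to 67.0, 64.0, 1150 and 703 CPM. Of the other melanocyte markers, Mc1r and Ednrb were also higher in replicates 3 and 4 than in replicates 1 and 2. Mc1r had 0.427, 1.06, 4.98 and 4.33 CPM and Ednrb 13.9, 14.7, 31.1 and 106 CPM. Pax3 and S100b did not follow Sox10. Pax3 had 13.8, 75.9, 10.8 and 3.98 CPM and S100b 55.6, 317, 133 and 6.38 CPM. Mitf and Kit overlapped between these pairs of replicates. The 7 melanocyte markers together summed to 134, 454, 750 and 424 CPM. Normal hair follicles hold melanocytes, and of the hair follicle markers Dsg4 was at 0 in replicates 1 and 2 and Krt25 in replicate 1. None of the keratinocyte markers was at 0 in these 4 libraries. The part of these cells in the residual levels was not tested. Among GNA11 Q209L Bap1 KO libraries, keratinocyte markers summed to 1626 CPM in replicate 1 and at most 5.80 CPM in the others.

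**Figure D5:**
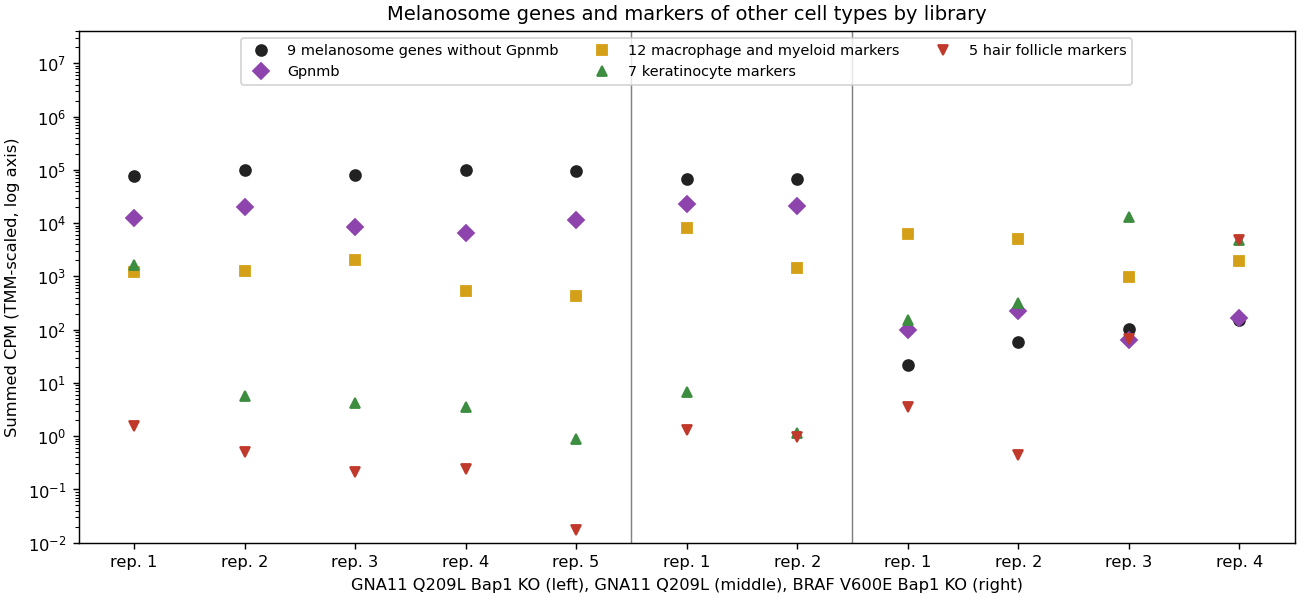
Summed TMM-scaled CPM on a log axis in each library, for Gpnmb, the other 9 melanosome genes, and markers of macrophages, keratinocytes and hair follicle. In BRAF V600E Bap1 KO tumours the 9 genes sum to between 21.9 CPM (replicate 1) and 151 CPM (replicate 4), and keratinocyte and hair follicle sums are higher in replicates 3 and 4, whereas macrophage sums are higher in replicates 1 and 2.

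Genes of melanosome biogenesis and transport, a list of 30, had a smaller median fold change between oncogenes than the 10 genes. In GNA11 Q209L Bap1 KO tumours against BRAF V600E Bap1 KO tumours, 15 were called higher, 1 lower and 14 not called, with a median log2 fold change of 0.86 against −0.26 over all genes (edgeR). Over all genes 16.5% were called higher and 24.7% lower. Rab27a, the GTPase that tethers melanosomes to the actin motor, averaged 424 ± 81.9 CPM in GNA11 Q209L Bap1 KO tumours and 9.69 ± 6.90 CPM in BRAF V600E Bap1 KO tumours (SD, n = 5 and 4; log2 fold change 5.46 ± 0.58, SE, edgeR adjusted p = 0.000265). Rab38, which delivers Tyr and Tyrp1 to melanosomes, averaged 385 ± 81.0 CPM in GNA11 Q209L Bap1 KO tumours and 7.76 ± 5.98 CPM in BRAF V600E Bap1 KO tumours (5.64 ± 0.62, edgeR adjusted p = 0.000294). Myo5a, the motor itself, averaged 1393 ± 377 CPM in GNA11 Q209L Bap1 KO tumours and 147 ± 33.8 CPM in BRAF V600E Bap1 KO tumours (3.25 ± 0.38, edgeR adjusted p = 0.000393). The gene called lower was Ap3s1, a subunit of the AP-3 sorting complex. In GNA11 Q209L Bap1 KO tumours against those labelled GNA11 Q209L, 0 of the 30 were called, and the smallest adjusted p values by edgeR were 0.251 for Ap3s1 (log2 fold change −1.79 ± 0.51), 0.413 for Dtnbp1 (−0.71 ± 0.30) and 0.416 for Snapin (−0.49 ± 0.21, SE).

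Of 14 other pigment genes, 8 were called higher and 1, the ribosomal Rpl24, lower in GNA11 Q209L Bap1 KO tumours than in BRAF V600E Bap1 KO tumours (edgeR, median log2 fold change 1.30, against 16.5% of all genes called higher and 24.7% lower). Tspan10, a tetraspanin linked to eye pigment, averaged 957 ± 374 CPM in GNA11 Q209L Bap1 KO tumours and 0.681 ± 0.314 CPM in BRAF V600E Bap1 KO tumours (10.48 ± 0.64 on the log2 scale, edgeR adjusted p = 3.19e-05). Cited1, a transcriptional coactivator, averaged 1759 ± 1072 CPM in GNA11 Q209L Bap1 KO tumours and 0.639 ± 0.415 CPM in BRAF V600E Bap1 KO tumours (11.43 ± 0.90, edgeR adjusted p = 7.05e-05). Trpm1, a cation channel of melanocytes, averaged 917 ± 245 CPM in GNA11 Q209L Bap1 KO tumours and 2.48 ± 2.76 CPM in BRAF V600E Bap1 KO tumours (8.55 ± 0.93, edgeR adjusted p = 0.000281). These fold changes reach the size of those of the 10 genes. Against GNA11 Q209L tumours, 0 of the 14 were called, and the copper pump Atp7a came nearest, at 70.6 ± 15.6 CPM in GNA11 Q209L Bap1 KO tumours and 31.6 ± 6.04 CPM in GNA11 Q209L tumours (edgeR adjusted p = 0.256).

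Of 15 melanocyte regulators, 6 were called higher and 3 lower in GNA11 Q209L Bap1 KO tumours than in BRAF V600E Bap1 KO tumours, with a median log2 fold change of 0.90 (edgeR), where 16.5% of all genes were called higher and 24.7% lower. Mitf had 639, 359, 852, 1199 and 546 CPM in GNA11 Q209L Bap1 KO tumours, 331 and 344 CPM in GNA11 Q209L tumours, and 31.2, 34, 24.9 and 44.1 CPM in BRAF V600E Bap1 KO tumours. GNA11 Q209L Bap1 KO was above BRAF V600E Bap1 KO in every library, by 4.42 ± 0.40 on the log2 scale (SE, edgeR adjusted p = 0.000142). That fold change was below those of the 10 genes, which ran from 6.40 to 10.86. Against GNA11 Q209L tumours, 0 of the 15 were called, and 11 had a log2 fold change below 0, with a median of −0.34. The smallest p values were those of Ednrb, the endothelin receptor of melanocytes, Lef1, a Wnt pathway factor, and Mitf. Ednrb averaged 23.3 ± 2.17 CPM in GNA11 Q209L Bap1 KO tumours and 234 ± 249 CPM in GNA11 Q209L tumours, without overlap (SD, n = 5 and 2; log2 fold change −3.33 ± 0.76, SE, edgeR adjusted p = 0.174). Lef1, with 0 to 31 counts per GNA11 Q209L Bap1 KO library, averaged 0.183 ± 0.226 CPM in GNA11 Q209L Bap1 KO tumours and 1.98 ± 1.92 CPM in GNA11 Q209L tumours (SD; −3.29 ± 1.21, SE, edgeR adjusted p = 0.354). Mitf lay the other way, with a log2 fold change of 1.09 ± 0.45 without overlap (SE, edgeR adjusted p = 0.399). Usf2 and Tfeb, related helix-loop-helix factors, were also called higher in GNA11 Q209L Bap1 KO tumours than in BRAF V600E Bap1 KO tumours, by 1.28 ± 0.25 and 2.39 ± 0.49 (edgeR adjusted p = 0.00405 and 0.00476). The 3 called lower, Lef1, Tfec and Usf1, are 3 of 15, a share not above that of all genes.

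The profile over the 11 libraries most like the median of the 10 genes was sought among 11384 genes. Likeness was the root mean square difference of centred log2 CPM, so it reflects mainly the step between oncogenes. The nearest 8 were Trpm1 (0.456), Syt9 (0.614), Tspan10 (0.673), Mc1r (0.696), Eif2c5 (0.866), Cort (0.962), Chsy3 (1.02) and Abcc2 (1.04). Among the 10 genes, Oca2 was nearest their median, at 0.207, and Gpnmb the farthest, at 1.57. Gpnmb ranked 30 among all 17350 genes tested, the 10 genes included. The 10 genes form that median, so their nearness to it is partly built in. Mc1r, the melanocortin receptor that controls the type of melanin, averaged 1073 ± 520 CPM in GNA11 Q209L Bap1 KO tumours, 917 ± 754 CPM in GNA11 Q209L tumours and 2.70 ± 2.29 CPM in BRAF V600E Bap1 KO tumours (SD, n = 5, 2 and 4).

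Exons of 2 of the 10 genes overlap a gene on the opposite strand, and the strand setting of the counting is not given in the sources used here. Slc24a5 overlaps Myef2, which had 67.5 to 180 CPM in GNA11 Q209L Bap1 KO tumours, 99.5 and 67.5 CPM in GNA11 Q209L tumours and 20.7 to 38.3 CPM in BRAF V600E Bap1 KO tumours. Pmel overlaps Dgka, which had 9.39 to 19.5 CPM in GNA11 Q209L Bap1 KO tumours, 20.5 and 15.3 CPM in GNA11 Q209L tumours, and 13.6, 19.8, 125 and 88.8 CPM in BRAF V600E Bap1 KO tumours. In BRAF V600E Bap1 KO tumours, Slc24a5 was below Myef2 in 4 of 4 libraries and Pmel below Dgka in 3 of 4, and reads from the overlap cannot be told apart there.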

How the data were processed

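RNA from 11 tumours was sequenced after library preparation with standard Illumina protocols, per the labels' protocols. The authors deposited estimated counts per gene, without normalisation, in whole numbers. STAR and mm9 are named in the submitters' processing notes, and no source used here gives the counting program, annotation or strand setting. Of the gene lines, 7 exact repeats were dropped, 6 sequences of transgenes entered neither library sizes nor tests, and 0 value columns were left unused. Counts were tested with the quasi-likelihood test of edgeR 4.0.16 (R 4.3.3) with TMM scaling, the default filter by group (17350 genes), all 11 libraries in 1 fit and genotype as the only term. P-values are two-sided with Benjamini-Hochberg adjustment over all genes and a threshold of 0.05, and SE is the fold change over the root of F. The test was checked on simulated counts. Log2 CPM for the likeness search used a prior count of 2, and candidates had an average log2 CPM of at least 2.

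Ratios to Pmel were compared with exact permutation tests over libraries (SciPy 1.17.1), adjusted over 18 tests. Poisson intervals are exact at 95%, and they and the floor of 3 counts cover counting error alone. Alternatives were RLE scaling, total counts, scaling without the 10 genes, no filter, DESeq2 1.42.0, limma voom 3.58.1, the compared genotypes alone, 2 libraries with a shared identifier summed, each library left out, a prior of 2 counts and Tyr as denominator of the ratios. Leaving out both libraries with the differing Bap1 entry was chosen after seeing the data. The 10 genes, the lists and the rule for named genes (the 10 genes, the 8 nearest profiles and up to 3 genes per list and comparison by p, plus markers) were chosen with earlier results of these data known. Of the 15 other pigment genes 14 matched the table. Gpnmb and Mlana as cases with lower means, and the lower calls named in the lists, were chosen after their values were seen.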

Additional observations from a re-analysis of the deposited data

Results flagged for a closer look

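Among 40 sets of 4 or 5 libraries (CPM of each gene and log2 ratio to Pmel within a genotype), 3 held a library far from the others by Dixon's test, and chance gives about 1 in 20. Dct had 38814 CPM in GNA11 Q209L Bap1 KO replicate 4, above the other 4 libraries. Gpr143 had 215 CPM in GNA11 Q209L Bap1 KO replicate 3, above the other 4 libraries. The log2 ratio of Tyrp1 to Pmel was −0.77 in BRAF V600E Bap1 KO replicate 2, below the other 3 libraries.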

How the results depend on the processing

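The number of the 10 genes called stayed at 10 higher in both comparisons with BRAF V600E Bap1 KO and at 0 for GNA11 Q209L Bap1 KO tumours against those labelled GNA11 Q209L under every alternative run, and no log2 fold change against BRAF V600E Bap1 KO tumours changed sign. For GNA11 Q209L Bap1 KO tumours against those labelled GNA11 Q209L, edgeR called 5 of all genes, against 3 with RLE scaling, 3 without a filter, 442 with DESeq2, 64 with the 2 genotypes alone, 0 with the libraries of shared identifier summed and 0 to 1 with a library left out. For GNA11 Q209L minus BRAF V600E Bap1 KO, 2637 genes were called, against 5458 with DESeq2, 417 with the 2 genotypes alone, 838 without both libraries of differing Bap1 entry and 265 to 2867 with a library left out, lowest without GNA11 Q209L replicate 2. GNA11 Q209L Bap1 KO minus BRAF V600E Bap1 KO had 7146 genes called and 3571 without both those libraries. Fewer libraries enter several of these fits, and for DESeq2 and RLE the cause was not tested. With total counts alone, the median of all genes moved by −0.37 and −0.42 in the comparisons of GNA11 Q209L Bap1 KO and GNA11 Q209L with BRAF V600E Bap1 KO, and the share of calls that were higher was 23.4% and 35.1%, against 40.1% and 61.0%. With voom the medians moved by 0.11 and 0.14.

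For GNA11 Q209L Bap1 KO tumours against those labelled GNA11 Q209L, Gpr143 had a log2 fold change of −0.0021 without GNA11 Q209L Bap1 KO replicate 3 and up to 0.25 without another library. With a library left out, the difference in log2 ratio to Pmel ran from −0.32 to 0.35 for Dct, −0.38 to 0.10 for Gpr143 and −0.21 to 0.26 for Slc24a5. With Tyr as denominator the sign changed between these genotypes for Tyrp1 (−0.085), Dct (−0.49), Oca2 (−0.14) and Slc24a5 (−0.44), and against BRAF V600E Bap1 KO tumours for Tyrp1 (0.76), Dct (0.94), Slc45a2 (0.84) and Oca2 (0.28), whereas Gpnmb kept its sign in both (−1.77 and −3.03) but GNA11 Q209L libraries then lay within the BRAF V600E Bap1 KO range. Gpr143, Mlana and Slc24a5 against BRAF V600E Bap1 KO tumours shrank to −0.92, −1.25 and −1.53, and Gpr143 then overlapped. No paired analysis was possible because the labels carry no replicate numbers, and numbers given in accession order pair nothing. With 2 GNA11 Q209L libraries the exact permutation test cannot go below 0.0952, and at the lowest residual counts counting error alone is wide.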

Other observations

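The CreERT2 transgene sequence, kept out of the gene tests, had 181 to 326 CPM in GNA11 Q209L Bap1 KO libraries, 85.6 and 129 CPM in GNA11 Q209L libraries, and 0.168, 0.204, 24.6 and 0.918 CPM in BRAF V600E Bap1 KO libraries. The promoter that drives it is not given in the labels. BRAF V600E Bap1 KO replicate 3 had 708 counts of it, and a link to the residual levels of the 10 melanosome genes was not tested. The human GNA11 Q209L sequence had 6.51 to 17.4 CPM in GNA11 Q209L Bap1 KO libraries and 22.9 and 125 CPM in GNA11 Q209L libraries, without overlap.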
